A study of Mus musculus with 2 samples.

Results

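The nuclear-encoded subunits of the oxidative phosphorylation complexes, with the assembly factors that carry the same name stems, were compared between regulatory T (Treg) cells of Nr4a-TKO mice and of wild-type mice. Treg cells form a branch of CD4 T cells that holds immune responses in check, and the Nr4a family comprises the related nuclear receptors Nr4a1, Nr4a2 and Nr4a3. The genes were chosen by name, as those that begin with Nduf, Uqcr, Atp5 or Cox followed by a digit, or that are Sdha, Sdhb, Sdhc or Sdhd, and a hyphenated pseudogene name was left out. This gave 101 gene names with 150 probes, of 34960 gene names on the array in all. Both groups were 5 weeks old, with 1 one-colour array of total RNA for Nr4a-TKO and 1 for wild-type. The labels leave unsaid how the receptor genes were altered and in which cells, by which markers the Treg cells were sorted, and how many mice stood behind a sample.

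Oxidative phosphorylation passes electrons from NADH and succinate through complexes I, II, III and IV of the inner mitochondrial membrane to oxygen, and complex V, the ATP synthase, uses the resulting proton gradient to make ATP. Complexes I, III, IV and V are built from subunits of both the nuclear and the mitochondrial genome, whereas complex II is encoded by nuclear genes alone. In T cells this pathway supplies ATP alongside glycolysis, and Treg cells are known for their reliance on it.

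With 1 array per genotype no difference has a replicate check, no test was made, and the number of arrays limits the precision. Signals are log2 values relative to each array's 75th percentile, so 0 is the level of that percentile, and a difference is the Nr4a-TKO value minus the wild-type value on this log2 scale. A gene was represented by the brightest of its probes and counted as measured where the scanner called this probe well above background on each of the arrays. Signals of different probes are not comparable with each other, because hybridisation differs between probes. The median spread between replicate spots of a probe was 0.051 on the Nr4a-TKO array and 0.061 on the wild-type array (SD of log2 signal, 262 probes). The scanner's error model, which assumes a 10% multiplicative error, gave the differences a median error of 0.20. Over all 23493 measured gene names the median difference was 0.08.

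The labels were checked against the receptors and the cell markers. Nr4a1 had a log2 signal of 6.96 in Nr4a-TKO cells and 6.90 in wild-type cells, the brighter probe of Nr4a2 had 0.18 against -1.16, and Nr4a3 had -3.93 against -1.11. Of the 3 receptors, then, Nr4a3 alone was lower on the array labelled Nr4a-TKO, and every direction here is drawn from that label. The 5 Treg markers were all lower there, with a summed signal of 261 times the array's 75th percentile, against 377 in wild-type cells. Nearly all of this sum came from the bright probes of Tnfrsf18 (7.16 against 7.72) and Il2ra (6.76 against 7.15), so it says little of the other markers. Foxp3, the defining Treg factor, had -2.57 in Nr4a-TKO cells and 1.54 in wild-type cells. The 8 proliferation markers summed to 515 in Nr4a-TKO cells and 372 in wild-type cells. Of these, 3 were at least 2-fold higher (Ccnb1, Ccnb2 and Cdc20), beside 3.15% of all measured names. Mki67 had a difference of 0.53 and Top2a one of 0.54, while Pcna had 0.01, Mcm2 0.12 and Tyms -0.26. Lists of CD8 and NK, B, macrophage and dendritic, granulocyte and mast, erythroid and platelet, and epithelial and stromal markers each summed to at most 1.58 in Nr4a-TKO cells and 1.95 in wild-type cells, and the T cell list to 393 and 457. Ms4a1, Klrb1c, Itgax and Pf4 of these lists were below the background call on both arrays, and S100a8, S100a9, Mcpt8 and Lyz2 passed it on the wild-type array alone. Others were measured on both and differed, among them the B cell gene Cd79b, with 0.04 in Nr4a-TKO cells and -1.29 in wild-type cells (1.33). The myeloid gene Mpo had -4.54 in Nr4a-TKO cells and -1.59 in wild-type cells (-2.96), while Cd8b1 had -0.64 and Col3a1 0.76. The 3 measured B cell genes were all higher in Nr4a-TKO cells, with Cd79a at 0.11 and Pax5 at 0.30, beside 59.6% of all measured names. The 2 measured granulocyte and mast genes were both lower, though Elane by little (-0.07). S100a8, S100a9 and Mcpt8, called on the wild-type array alone, belong to that list too. The other 2 lists went both ways. Cd8a had -0.18 and Prf1 0.10, and beside Col3a1 stood Pecam1 at -0.70 and Epcam at -0.18. The plasma cell list, which holds Xbp1, a factor that T cells also express, summed to 53.1 and 65.2, nearly all of it Xbp1, and its surface marker Sdc1 ran the other way, with -2.24 in Nr4a-TKO cells and -3.90 in wild-type cells (1.66, 3.17-fold). Xist, the X-inactivation RNA, had 1.83 against -7.05 and was well above background only on the Nr4a-TKO array. Ddx3y, a Y-linked helicase gene, had 0.38 against 2.24 and was well above background on both arrays. The samples thus differed in these sex-linked transcripts, and genotype and sex cannot be told apart. In these bulk samples fewer cells of a type and less RNA per cell cannot be told apart either. The part of cell identity, proliferation or sex in the results that follow was not tested.

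Most oxidative phosphorylation genes were slightly higher on the Nr4a-TKO array, by a similar amount. Of the 101 genes, 98 were measured, and their median difference was 0.27 (interquartile range 0.16 to 0.33), against 0.08 (-0.16 to 0.29) over all measured names. In all, 93 of the 98 (94.9%) had a difference above 0, beside 59.6% of all measured gene names, and 87 lay above the median of all names. The spread among them (SD 0.32, and interquartile range 0.17 wide) compared with 0.56 and 0.46 over all names, which include many dimmer probes and were not matched for signal. These differences are small: 79 of the 98 lay between 0.1 and 0.5, and 67 exceeded 1 modelled error of the scanner, 65 of them upward, while 10 exceeded 2. The direction depends on the scaling, since centring on the spike-in controls lowered every difference by 0.27 and placed the median at -0.003, with 48 of 98 above 0. A centring subtracts the same constant from every gene, so the gap of 0.19 between the oxidative phosphorylation genes and all names stays as it is by construction. Among the settings that could move this gap, it was 0.17 with normexp background correction, 0.11 with loess, 0.08 with quantile normalization, 0.17 with the mean over probes or with no filter on dim probes, and 0.16 with a stricter filter.

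The size rule of 2-fold took 1 gene, Cox6a2, which was higher in Nr4a-TKO cells, and none was 2-fold lower. This 1 of 98 stands beside 3.15% of all measured names that were 2-fold higher and 3.06% that were 2-fold lower. At 1.5-fold, 3 of the 98 genes were higher, namely Cox6a2, Ndufa4l2 and Ndufb8, beside 8.36% of all names, and 0 were lower, beside 7.36%. Oxidative phosphorylation genes therefore passed a size rule no more often than all measured names did, and differed from them in the position of the bulk of their values. These shares were not matched for signal. On the Nr4a-TKO array the median log2 signal was 6.12 for the oxidative phosphorylation genes and -0.35 over all names. With the stricter filter on dim probes 267 of 11746 names were 2-fold higher, against 741 of 23493 with the main filter.

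**Figure D1:**
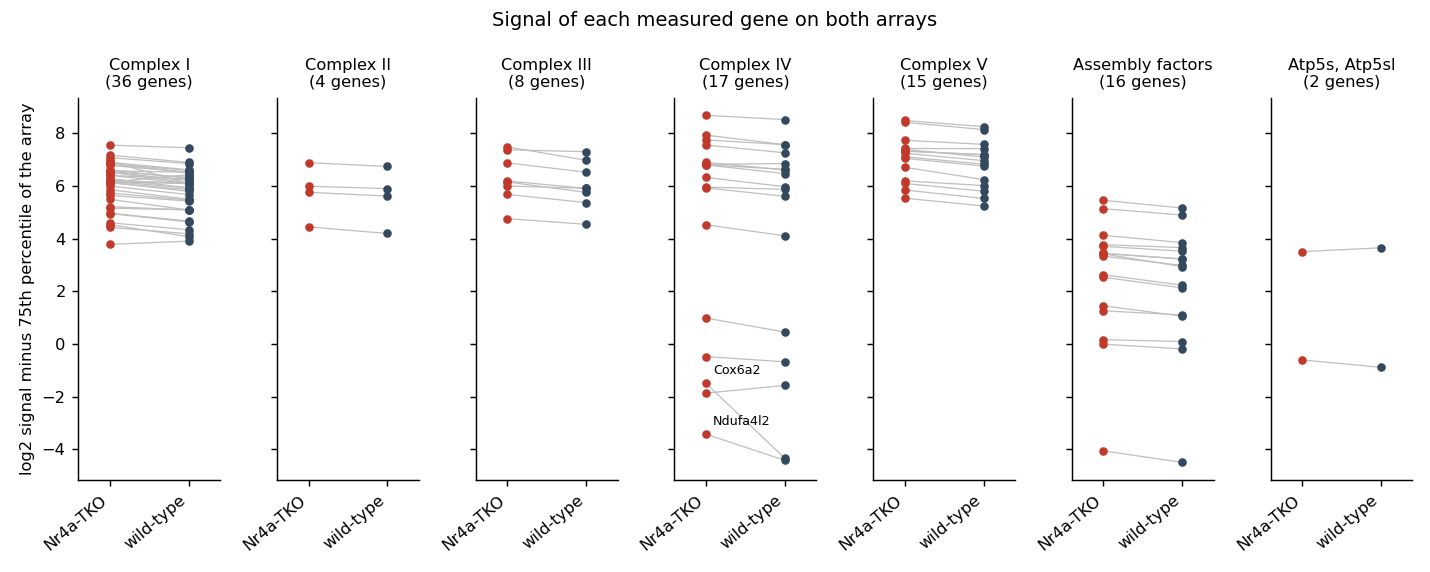
Log2 signal relative to the array's 75th percentile (vertical axis) of each measured gene on the Nr4a-TKO array and on the wild-type array, with a line joining the values of a gene, by complex. Most lines tilt slightly downward to the wild-type side at this scaling (93 of 98 genes), a direction that centring on spike-ins removes, and Cox6a2 falls away furthest, with -1.495 in Nr4a-TKO cells and -4.33 in wild-type cells.

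Oxidative phosphorylation genes had bright probes, 91 of the 98 lying above the 75th percentile on both arrays, so they were also set beside names of similar signal. Where the mean log2 signal lay between 4 and 6, the median difference of the 29 oxidative phosphorylation genes was 0.30, against 0.16 over all 2264 names in that range. Above 6 it was 0.26 for 47 genes, against 0.18 over 1486 names. Between 2 and 4 it was 0.21 for 11 genes, against 0.09 over 3713 names. The genes thus lay above names of like signal in each of these ranges, and in each of them by less than the gap of 0.19 to the median of all names.

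Complex I, NADH dehydrogenase, is the entry point for electrons from NADH. All 36 of its subunits were measured, 34 had a difference above 0, and the median was 0.26, which became -0.01 under spike-in centring. Its 7 core subunits of nuclear origin, most of which carry the flavin, iron-sulphur clusters or part of the quinone site, had a median of 0.36. Each was higher in Nr4a-TKO cells at this scaling, by 0.25 to 0.45. Ndufs1, the large subunit with several iron-sulphur clusters, had 5.49 in Nr4a-TKO cells and 5.09 in wild-type cells, a difference of 0.41. Ndufv1, which binds the flavin and NADH, had 6.52 in Nr4a-TKO cells and 6.12 in wild-type cells, a difference of 0.41. Ndufs8, an iron-sulphur subunit of the arm that leads to the quinone, had 4.53 in Nr4a-TKO cells and 4.08 in wild-type cells, a difference of 0.45, the highest of the core subunits. Ndufs7, which holds the cluster next to the quinone, had 6.28 against 5.92 (0.36). Ndufv2, an iron-sulphur subunit beside Ndufv1, had 5.99 against 5.67 (0.32). Ndufs3, a subunit of the matrix arm, had the lowest difference of the 7, 0.25, from 6.17 in Nr4a-TKO cells and 5.93 in wild-type cells.

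The 29 accessory subunits of complex I, which surround the core and stabilise it, had a median difference of 0.25 and ranged from -0.29 to 0.84. The medians of core and accessory subunits were 0.35 and 0.24 with normexp, 0.18 and 0.06 with quantile normalization and 0.19 and 0.08 with loess, and a centring cannot change their order. Ndufb8, an accessory subunit of the membrane arm whose loss is a common laboratory readout of complex I assembly, had 6.93 in Nr4a-TKO cells and 6.09 in wild-type cells. Its difference of 0.84 (1.79-fold) was the highest of complex I and stayed between 0.56 and 0.89 over the 12 settings. It has 1 probe, so no second probe bears on it. Other accessory subunits at the upper end were Ndufb6, with 5.85 against 5.49 (0.36), Ndufa12, with 6.84 against 6.50 (0.34), and Ndufc1, with 6.13 against 5.79 (0.34). At the lower end, Ndufa11, a membrane arm subunit, had 3.78 in Nr4a-TKO cells and 3.90 in wild-type cells, a difference of -0.12. Ndufa3, another small membrane arm subunit, had 6.14 in Nr4a-TKO cells and 6.43 in wild-type cells, a difference of -0.29. Its second, dimmer probe had -1.15 in Nr4a-TKO cells and -1.60 in wild-type cells, a difference of 0.45, so the probes of Ndufa3 disagree in direction. Ndufb2 (0.01) and Ndufb7 (0.06) lay closest to no difference.

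Complex II, succinate dehydrogenase, links the citrate cycle to the chain, and it had the lowest median of the 5 complexes, 0.15 over 4 subunits. It was also the lowest with normexp (0.17), quantile normalization, loess and the mean over probes (0.15), settings that could have changed the order. The median of complex II turned below 0 under quantile normalization (-0.03), loess (-0.02) and spike-in centring (-0.13). Sdha, the flavin subunit that oxidises succinate, had 5.76 in Nr4a-TKO cells and 5.61 in wild-type cells, a difference of 0.14. Sdhb, the iron-sulphur subunit, had 6.88 in Nr4a-TKO cells and 6.74 in wild-type cells, a difference of 0.15. Of the membrane anchors, Sdhc had 4.44 against 4.19 (0.25) and Sdhd had 5.99 against 5.90 (0.09). With 4 genes, the values of complex II lie within the range of every other complex, and no complex was tested against another.

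Complex III, the cytochrome bc1 complex, passes electrons from ubiquinol to cytochrome c. All 8 genes were measured and lay above 0, with a median of 0.30 that fell to 0.02 under spike-in centring. Uqcrfs1, the Rieske iron-sulphur protein at the catalytic site, had 5.68 in Nr4a-TKO cells and 5.37 in wild-type cells, a difference of 0.31. The large scaffold subunits Uqcrc1 and Uqcrc2 had 4.76 against 4.54 (0.22) and 6.19 against 5.90 (0.28). Uqcrq, a small subunit next to cytochrome b, had 7.48 in Nr4a-TKO cells and 6.97 in wild-type cells, and its difference of 0.50 was the highest of complex III and was the same on its second probe. Uqcr11 (0.40) and Uqcr10 (0.36) followed, and Uqcrb (0.09) and Uqcrh (0.07), the hinge protein, had the lowest differences.

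Complex IV, cytochrome c oxidase, reduces oxygen to water, and several of its nuclear subunits exist as a widely expressed form and a form of muscle, testis or lung. Of 20 genes, counting Ndufa4 and its relative Ndufa4l2, which belong to complex IV in spite of their names, 17 were measured, with a median of 0.30 (0.02 under spike-in centring) and 15 above 0. The 12 widely expressed genes alone had a median of 0.29. Cox4i1, the common form of subunit 4, had 7.55 in Nr4a-TKO cells and 7.26 in wild-type cells, a difference of 0.30. Subunits 5a and 5b, nuclear subunits that sit on the matrix side, had 7.75 against 7.56 for Cox5a (0.18) and 6.79 against 6.47 for Cox5b (0.33). Cox6b1, which faces the intermembrane space, had 4.52 in Nr4a-TKO cells and 4.11 in wild-type cells, a difference of 0.41. The small membrane subunits gave 0.18 for Cox6c, 0.35 for Cox7a2, 0.28 for Cox7b, 0.32 for Cox7c and 0.36 for Cox8a. Another Cox7c probe of similar signal gave 0.58, and a much dimmer one 0.22. Cox7a2l, a factor that joins complexes III and IV into a supercomplex, had 6.82 in Nr4a-TKO cells and 6.85 in wild-type cells, a difference of -0.02, and its 2 further probes gave -0.15 and -0.18. It was thus the 1 gene with several measured probes that were all lower in Nr4a-TKO cells.

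The restricted or inducible isoforms of complex IV held the widest differences of the whole set. Cox6a2, the heart and skeletal muscle form of subunit 6a, had -1.495 in Nr4a-TKO cells and -4.33 in wild-type cells, a difference of 2.84 or 7.15-fold. Its wild-type signal lay near the lowest signal called well above background on that array (-4.89), and normexp background correction reduced the difference to 1.62, or 3.08-fold. It was past 2-fold in all 11 settings that measured it, though of these only normexp, quantile normalization and loess could have changed this. The others leave its 1 probe as it is or shift it by a constant too small to matter here. A stricter filter on dim probes left it out. Cox6a1, the common form, had 8.68 in Nr4a-TKO cells and 8.51 in wild-type cells, a difference of 0.16. Ndufa4l2, a hypoxia-inducible relative of Ndufa4, had -3.42 in Nr4a-TKO cells and -4.41 in wild-type cells, a difference of 0.99 that fell short of 2-fold and was 0.47 under normexp. Ndufa4 itself had 5.95 against 5.87 (0.09). Cox7a1, the muscle form of subunit 7a, had 0.98 in Nr4a-TKO cells and 0.46 in wild-type cells, a difference of 0.53. Cox4i2, the lung form of subunit 4, ran the other way, with -1.86 in Nr4a-TKO cells and -1.57 in wild-type cells, a difference of -0.29. Cox6b2, a testis form, had -0.48 against -0.67 (0.20). Cox7b2, Cox8b and Cox8c, forms of testis or muscle, failed the background call on both arrays and have no fold. Restricted isoforms were therefore found on both sides of 0, and all of their signals except that of Cox7a1 lay below the 75th percentile on both arrays.

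**Figure D2:**
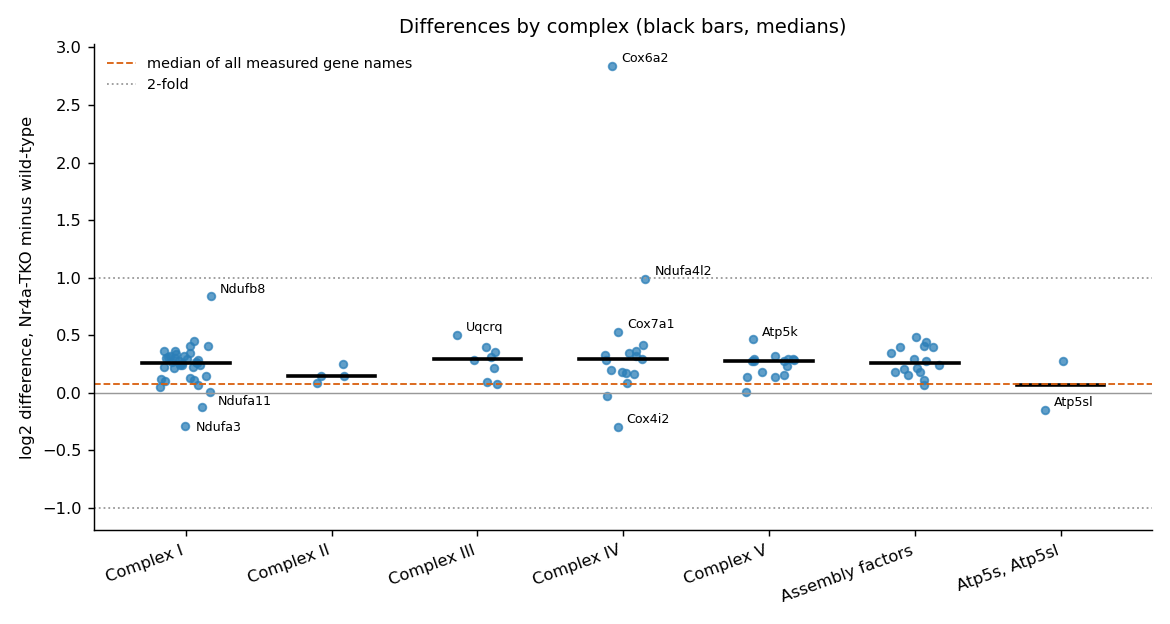
Log2 difference, Nr4a-TKO minus wild-type (vertical axis), of each measured gene by complex, with black bars for medians, the median of all measured gene names (0.08) as a dashed line and 2-fold as dotted lines. Medians of complexes I, III, IV and V lie between 0.26 and 0.30 and that of complex II at 0.15, values that spike-in centring lowers by 0.27 and so turns below 0 for complexes I and II.

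The probes of the genes with the largest differences are shown next, with that of the paired isoform or of a common complex IV subunit beside them. They are the array's own sequences, on mm9, written as lower case runs with no part marked. For both subunit 6a genes the last 30 of 60 bases are given. Cox6a2 (chr7:135349160-135349219, minus strand) and Cox6a1 (chr5:115795726-115795785, minus strand) were read by different sequences. The Ndufb8 probe (chr19:44624855-44627199, minus strand) covers 2345 bases of genome with 60 bases of transcript and therefore spans a splice junction. That of Cox4i1 (chr8:123197924-123197983, plus strand) lies in 1 block.
Cox6a2: ggctctgagagcccctgaggttccagtgga
Cox6a1: cgtgtctcctttcctcagatggcgaccatt
Ndufb8: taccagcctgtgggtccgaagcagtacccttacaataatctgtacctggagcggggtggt
Cox4i1: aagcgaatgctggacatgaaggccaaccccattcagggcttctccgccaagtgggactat

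Neighbouring genes in the RefSeq order were read to see whether the differences extended along the chromosome. Beside Cox6a2 on chromosome 7, Itgad, an integrin gene, had -3.82 in Nr4a-TKO cells and -4.36 in wild-type cells, a difference of 0.54, and 9130023H24Rik on the other side had -2.99 against -3.49 (0.50), while Armc5 had -0.04. The neighbours of Cox6a2 thus differed by less than Cox6a2 itself. Beside Ndufb8 on chromosome 19, Hif1an, the asparagine hydroxylase that acts on HIF-1, had -0.06 in Nr4a-TKO cells and 0.27 in wild-type cells, a difference of -0.33, and Wnt8b, a dim gene further on the other side, had -4.32 against -3.54 (-0.78). Both ran opposite to Ndufb8. Beside Ndufa4l2 on chromosome 10, Shmt2, a mitochondrial serine hydroxymethyltransferase, had 5.53 in Nr4a-TKO cells and 4.84 in wild-type cells, a difference of 0.69, and Stac3 had -0.16.

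Complex V, the ATP synthase, consists of the catalytic F1 head and the Fo membrane part with its stalk. All 15 genes were measured and lay above 0, with a median of 0.28 for the complex, 0.28 for the 5 genes of F1 and 0.28 for the 10 of Fo and the stalk, and the median of the complex was 0.001 under spike-in centring. Of the catalytic head, Atp5b, the catalytic beta subunit, had 8.48 in Nr4a-TKO cells and 8.25 in wild-type cells, a difference of 0.23. Atp5a1, the alpha subunit, had 7.04 against 6.75 (0.29). Atp5c1, the gamma subunit that turns inside the head, had 7.10 against 6.83 (0.28). Atp5d, the delta subunit, had 6.09 against 5.80 (0.30), and Atp5e, the epsilon subunit, had 7.32 against 7.19 (0.14). The F1 differences thus lay close together.

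Of the membrane part, Atp5k, the e subunit, which takes part in joining ATP synthase dimers, had 6.70 in Nr4a-TKO cells and 6.24 in wild-type cells, a difference of 0.46, the highest of complex V. Atp5h, the d subunit of the stalk, had 7.42 in Nr4a-TKO cells and 7.41 in wild-type cells, a difference of 0.00, the lowest. The genes Atp5g1, Atp5g2 and Atp5g3, which encode the same ring subunit c, had differences of 0.29, 0.28 and 0.16. A second probe of Atp5g1, designed on another transcript model, had 4.28 in Nr4a-TKO cells and 4.62 in wild-type cells, a difference of -0.34. The brightest of 6 Atp5l probes is placed on the X chromosome and the other 5 on chromosome 9, so signals of near-identical copies cannot be told apart there, and all 6 lay between 0.19 and 0.30. Atp5s and Atp5sl, which bear the name stem but stand apart from the complex, had 0.28 and -0.15, and Atp5sl is 1 of the 5 with a difference below 0, beside Cox4i2, Cox7a2l, Ndufa11 and Ndufa3.

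Assembly factors, which help to build the complexes and are not part of the finished enzyme, followed the subunits. All 16 counted here were measured and lay above 0 at this scaling, with a median of 0.26. Atp5s (0.28) and Atp5sl (-0.15), which RefSeq names Dmac2l and Dmac2, were not counted among them. The 7 factors of complex I had a median of 0.19 and the 9 of complex IV one of 0.28. Ndufaf7, a methyltransferase, had 3.42 in Nr4a-TKO cells and 2.94 in wild-type cells, a difference of 0.48, and Ndufaf6 had 2.53 against 2.13 (0.40). Ndufaf5 had the lowest, 0.07. Cox15, which makes heme A, had 1.45 in Nr4a-TKO cells and 1.06 in wild-type cells, a difference of 0.40, while its dimmer probe gave 0.08. Cox10, the enzyme of the step before it, had -0.01 against -0.18 (0.18). Cox18, an insertase for subunit 2, had 2.63 against 2.23 (0.40). Cox17, the copper chaperone, had -4.05 in Nr4a-TKO cells and -4.49 in wild-type cells, a difference of 0.44 on a dim probe that was the 1 of its 3 probes measured on both arrays. The others were lower in Nr4a-TKO cells. One had -4.69 against -3.91 and passed the background call on the wild-type array alone, and one had -6.85 against -4.70 and failed it on both arrays.

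Repeat measurements within an array come from replicate spots and from different probes of a gene. Of the oxidative phosphorylation genes, Uqcrc2 alone had replicate spots, whose SD was 0.034 on the Nr4a-TKO array and 0.025 on the wild-type array, and its difference of 0.28 had the lowest modelled error, 0.066. Of the 150 probes, 144 were measured, with a median difference of 0.25, and 133 were above 0 and 11 below. In 28 of 34 genes with several measured probes all probes were higher in Nr4a-TKO cells at this scaling, in 1 all were lower, and in 5 the probes disagreed in direction. The disagreeing genes were Atp5g1, Atp5j, Cox11, Cox16 and Ndufa3. In Atp5j the second probe gave -0.27 beside 0.18, in Cox11 -0.04 beside 0.21, and in Cox16 the dimmest of 3 gave -0.02 beside 0.24 and 0.40. The median gap between the probes of a gene was 0.08.

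**Figure D3:**
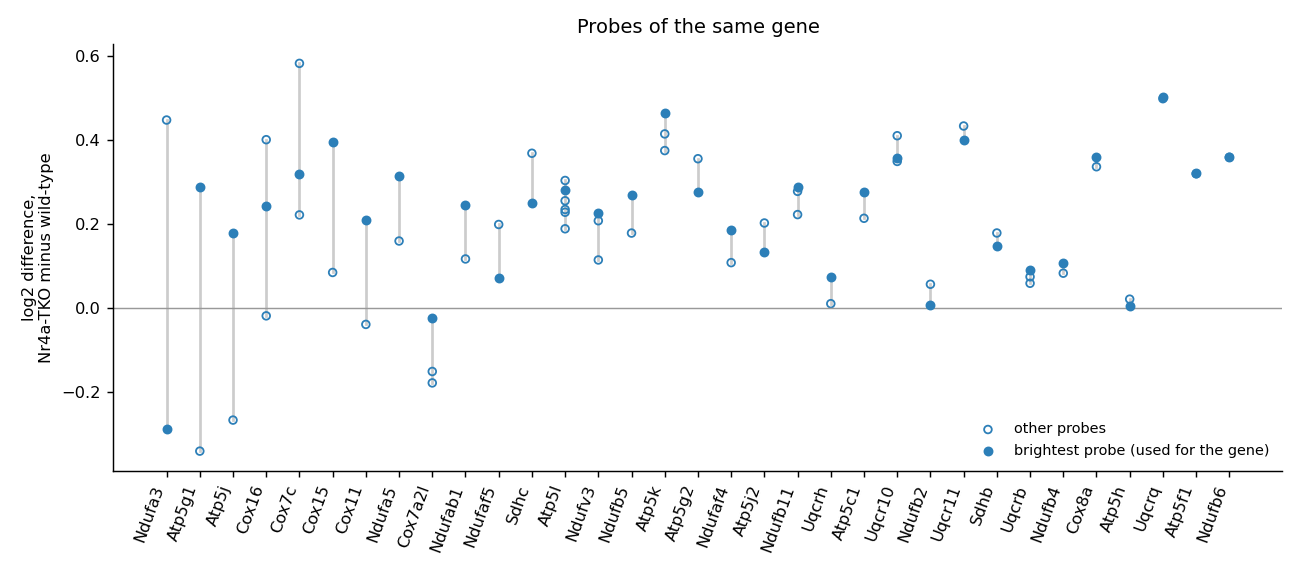
Log2 difference, Nr4a-TKO minus wild-type (vertical axis), of every measured probe of 33 genes with several measured probes, ordered by the gap between them. Filled points are the brightest probe, which stands for the gene, and open points the others. In 27 genes all points lie above 0 at this scaling (spike-in centring lowers all by 0.27), and the widest gaps are in Ndufa3, Atp5g1 and Atp5j.

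The genes encoded in mitochondrial DNA, which supply the remaining subunits of complexes I, III, IV and V, lay nearer to all genes than the nuclear ones did. All 13 were measured, with a median difference of 0.13, and 11 were above 0, and the median turned to -0.15 with spike-in centring, -0.08 with loess and -0.01 with quantile normalization. Most of them were bright, with a median log2 signal of 6.97 on the Nr4a-TKO array. All names with a mean signal above 6 had a median difference of 0.18, which is higher than that of the mitochondrially encoded genes. The complex IV core subunits had 8.97 against 8.84 for COX1 (0.13), 8.43 against 8.24 for COX2 (0.19) and 7.94 against 7.84 for COX3 (0.10), in Nr4a-TKO and wild-type cells. Cytochrome b of complex III had 0.04, and ATP6 and ATP8 of complex V had 0.20 and 0.31. ND6, the 1 subunit gene on the light strand, had 2.61 in Nr4a-TKO cells and 1.39 in wild-type cells, a difference of 1.22 or 2.34-fold, which spike-in centring reduces to 0.95, short of 2-fold. ND5, its neighbour on the opposite strand, had 4.10 in Nr4a-TKO cells and 4.78 in wild-type cells, a difference of -0.67. These were the widest differences of the list. The settings that could have changed their opposite directions gave, for ND6 and ND5, 1.16 and -0.61 with normexp, 1.16 and -0.79 with quantile normalization and 1.15 and -0.81 with loess. ND4L was also below 0, at -0.15.

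Other genes of the pathway were read as lists, the mitochondrially encoded one included. Of their 177 measured genes 1, ND6, was 2-fold higher, beside 3.15% of all measured names, and 0 were 2-fold lower, beside 3.06%. The 6 electron carriers had a median of 0.27, with Cyc1, the cytochrome c1 of complex III, at 6.30 against 5.96 (0.34) and Cycs, cytochrome c, at 7.07 against 6.80 (0.28). Among 5 further subunits and regulators of the ATP synthase the median was 0.15. Atpif1, the inhibitor of ATP hydrolysis, had 6.71 in Nr4a-TKO cells and 6.02 in wild-type cells, a difference of 0.68, and Atpaf1, an F1 assembly factor with a dim probe, had -4.45 in Nr4a-TKO cells and -3.995 in wild-type cells, a difference of -0.46. The 25 assembly factors outside the naming rule had a median of 0.29, and 22 were above 0. Sco1, a copper chaperone of complex IV, had 0.06 against -0.52 (0.58), and Nubpl, which delivers iron-sulphur clusters to complex I, had 2.36 against 1.79 (0.57). Sdhaf1, which helps to insert the clusters of Sdhb into complex II, ran the other way, with 3.49 in Nr4a-TKO cells and 4.38 in wild-type cells, a difference of -0.89.

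Mitochondrial genes outside the respiratory chain had medians of the same size. All 14 citrate cycle genes were above 0, with a median of 0.26, led by Cs, citrate synthase, with 7.11 in Nr4a-TKO cells and 6.60 in wild-type cells, a difference of 0.52. Ubiquinone synthesis had a median of 0.36 over 8 of 9 genes, all above 0, with Coq4 at 0.50, though a second probe of Coq9 gave -0.73 beside 0.33. Of 78 genes of the mitochondrial ribosome 75 were above 0 and the median was 0.29. The 7 carriers and pores had a median of 0.28, with Slc25a5, an ADP/ATP carrier, at 0.46, and the 7 import genes one of 0.26. Among the regulators of mitochondrial biogenesis 14 of 17 genes were measured, with a median of 0.22. Pprc1, a PGC-1-related coactivator, had -0.04 in Nr4a-TKO cells and -0.83 in wild-type cells, a difference of 0.79, and Ppargc1b had -1.65 against -2.08 (0.43). Nrf1, a transcription factor of respiratory genes, had 0.02 on its brightest probe and up to 0.57 on its 2 others, Esrra, an estrogen-related receptor, 0.07, and Tfam, a factor of mitochondrial DNA transcription and packaging, 0.20. Ppargc1a, Esrrb and Esrrg were not measured on both arrays. Spike-in centring lowers each of these list medians by 0.27, as it does for the oxidative phosphorylation genes.

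**Figure D4:**
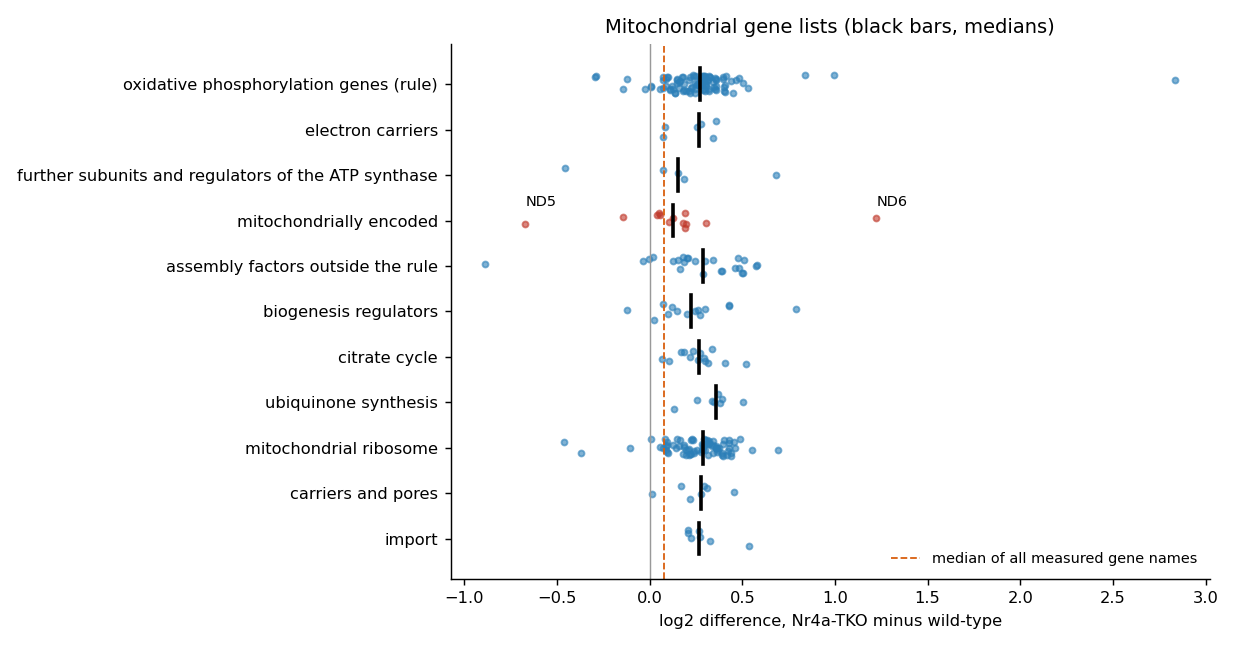
Log2 difference, Nr4a-TKO minus wild-type (horizontal axis), of each measured gene by list, with black bars for medians and the median of all measured gene names (0.08) as a dashed line. The nuclear mitochondrial lists have medians between 0.15 and 0.36 and the mitochondrially encoded genes one of 0.13, with ND6 (1.22) and ND5 (-0.67) at its ends, before the shift of 0.27 that spike-in centring makes.

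Promoter sequences were read for motifs that are known from respiratory genes or from Nr4a receptors, as a description of letters alone. Of the 101 names 83 matched a RefSeq promoter table (GRCm38.p6), with 90 windows from 250 bases before to 50 bases after the transcript start, and both strands were searched. The motif of the factor NRF1, a GC-rich palindrome, was found for 19 genes, in 22.2% of the windows, against 4.603% of all 32851 windows. The ETS motif CCGGAAG, which GABP binds, was found for 22 genes, in 25.6% of windows against 8.86%. Both were found in Atp5h, Atp5k, Cox6a1 and Sdhd, or 4.44% of windows against 0.892%, and neither in 46 genes. The estrogen-related receptor motif TCAAGGTCA was found in Atp5g3 and Sdhd, or 2.22% of windows against 0.423%. The motif for an Nr4a monomer, AAAGGTCA, shares AGGTCA with it and was found in 0 windows, against 1.51% of all.

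The differences of genes with and without a motif were set side by side, with no test. The median difference was 0.19 for 19 genes with the NRF1 motif and 0.27 for 62 measured genes without it. For the ETS motif it was 0.26 for 22 genes with it and 0.25 for 59 without, and for the estrogen-related receptor motif 0.12 for 2 genes with it and 0.26 for 79 without. The windows of Atp5k (chr5:108434350-108434649, minus strand) and Sdhd (chr9:50603800-50604099, minus strand), which hold several of these motifs, and of Ndufb8 (chr19:44555393-44555692, minus strand), which holds none of them and had the highest difference of complex I, are printed with the motif matches of either strand in capitals.
Atp5k: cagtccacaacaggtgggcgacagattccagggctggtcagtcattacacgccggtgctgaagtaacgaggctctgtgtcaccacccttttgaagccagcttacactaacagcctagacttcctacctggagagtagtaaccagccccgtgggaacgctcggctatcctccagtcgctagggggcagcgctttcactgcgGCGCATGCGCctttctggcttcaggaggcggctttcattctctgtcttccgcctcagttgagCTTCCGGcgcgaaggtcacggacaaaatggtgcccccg
Sdhd: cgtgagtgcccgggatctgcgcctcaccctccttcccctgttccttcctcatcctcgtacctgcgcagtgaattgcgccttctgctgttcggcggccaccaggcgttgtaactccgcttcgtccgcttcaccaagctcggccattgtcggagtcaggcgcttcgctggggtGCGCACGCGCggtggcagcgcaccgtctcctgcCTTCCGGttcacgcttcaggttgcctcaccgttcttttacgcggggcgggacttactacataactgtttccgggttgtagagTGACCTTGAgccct
Ndufb8: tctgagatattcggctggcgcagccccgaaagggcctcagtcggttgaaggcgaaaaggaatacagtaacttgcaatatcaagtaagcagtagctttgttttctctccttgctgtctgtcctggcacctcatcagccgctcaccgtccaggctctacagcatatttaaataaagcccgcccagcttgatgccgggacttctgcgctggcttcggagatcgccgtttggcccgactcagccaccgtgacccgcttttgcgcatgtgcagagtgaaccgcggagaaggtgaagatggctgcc
Atp5k, with the NRF1 and ETS motifs, had a difference of 0.46, Sdhd, with 3 of the motifs, had one of 0.09, and Ndufb8 one of 0.84. These genes were picked for their motifs or their difference, so no relation between motifs and differences can be read from them.

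The scaling chosen sets the level of all differences, and its effect on the oxidative phosphorylation genes was followed through each alternative. The median was 0.26 with normexp background correction or scaling on the array median, 0.22 with a 75th percentile taken over the probes that passed the background call, and 0.15 with centring on housekeeping genes. It was 0.11 with quantile normalization and with loess on signal, both of which remove a dependence of the difference on signal. Beside these stand the medians over all names, 0.09, 0.07, 0.03, -0.04, 0.02 and 0.003. Under spike-in centring the values were -0.003 and -0.20. The 3 X-linked genes Cox7b, Ndufa1 and Ndufb11 had differences of 0.23 to 0.29, within the range of the autosomal ones.

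**Figure D5:**
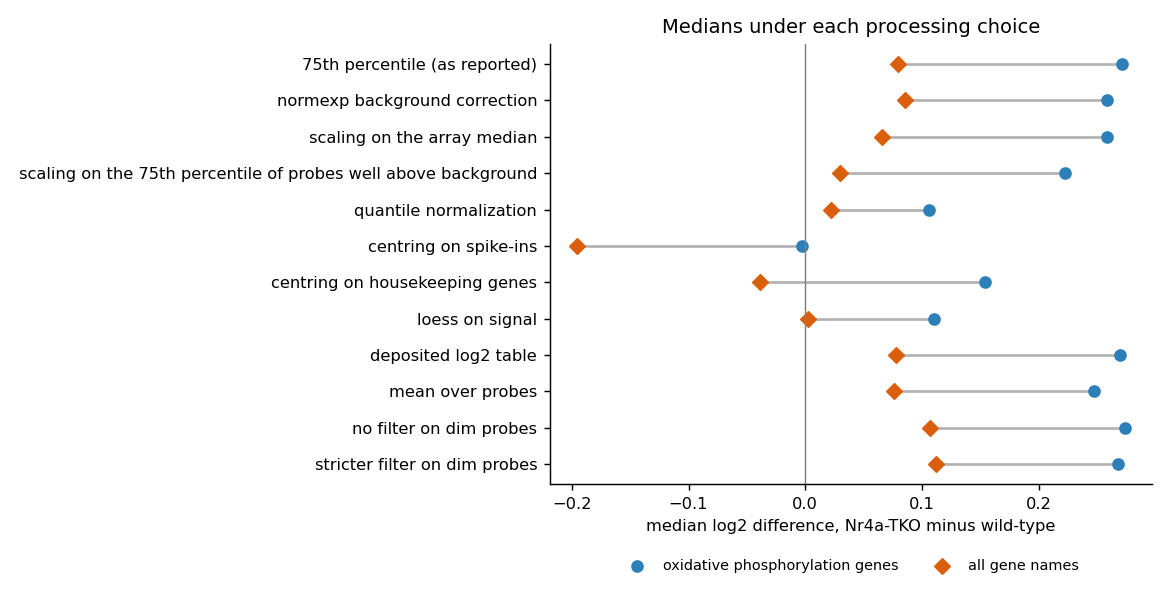
Median log2 difference, Nr4a-TKO minus wild-type (horizontal axis), of the oxidative phosphorylation genes and of all measured gene names under each of the 12 settings. The median of the oxidative phosphorylation genes lies to the right of that of all names by 0.08 to 0.19, a gap that centrings leave at 0.19 by construction and that quantile normalization (0.08) and loess (0.11) narrow, while its own position runs between -0.003 under spike-in centring and 0.27.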

How the data were processed

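Treg cell RNA of 1 Nr4a-TKO and 1 wild-type sample was measured on 1-colour arrays that lay on 1 slide and were scanned together, grouped by the genotype in the labels. Each array's deposited file gives spot intensity values made by Agilent Feature Extraction 10.10.1.1, with detrending within each array and surrogates for dim spots, per the file headers, and no scaling between arrays was found in them. A deposited log2 table, with a scaling that no source used here states, equals the log2 processed signal less a constant per array (SD of the gap 0.00029), with medians of -3.53 for Nr4a-TKO and -3.54 for wild-type. The constants, 9.546 for Nr4a-TKO and 9.688 for wild-type, lie near the 75th percentiles used here, 9.555 and 9.699. Probe coordinates are those of mm9, per the file headers.

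Control spots (3671 of 62976) and flagged spots (117 and 156, Nr4a-TKO and wild-type) were left out. Log2 processed signals were averaged over the spots of each of 55676 probes and set relative to the 75th percentile of their array. A probe counted as measured where the scanner called it well above background on both arrays (63.9% of probes for Nr4a-TKO and 66.0% for wild-type were so called), 0 spots were saturated, and a gene was its brightest probe. Genes of other lists were named through RefSeq accessions where these matched, and oxidative phosphorylation genes kept the file's names (135 of their 150 probes matched RefSeq).

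With no replicates there is no test; counts use a size rule of 2-fold. The counting step was run on simulated data whose planted differences lay well past the size rule, with noise below the scanner's modelled error. This checks the code and does not bear on how sure the counts are. The genes and lists were chosen with earlier results of these data known. Named genes are those past 2-fold, up to 4 highest and lowest subunits per complex, catalytic subunits, isoform sets, the leading assembly factors, genes with disagreeing probes and up to 3 leading genes each way of every other list, and the text names fewer, with some not reported here. Neighbouring genes, Nr4a, Xist and Ddx3y were named outside this rule. Python 3.11.15 (numpy 2.4.6, pandas 2.3.3, scipy 1.17.1, statsmodels 0.14.6, matplotlib 3.10.9) and R 4.3.3 (limma 3.58.1) were used. Alternatives were normexp with offset 50, 6 other scalings, the deposited table, the mean over probes, size rules of 1.5-fold and 3-fold and, for dim probes, no filter and a stricter one. Medians without the restricted isoforms of complex IV or without X-linked genes were added after seeing the data.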

Additional observations from a re-analysis of the deposited data

How the results depend on the processing

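The median difference of the oxidative phosphorylation genes (0.27) became 0.22 with a 75th percentile taken over the probes that passed the background call, 0.11 with quantile normalization, 0.15 with housekeeping centring, 0.11 with loess and -0.0032 with spike-in centring. In the same order complex I became 0.21, 0.091, 0.14, 0.10 and -0.013. Complex II became -0.030 with quantile normalization, 0.028 with housekeeping centring, -0.022 with loess and -0.13 with spike-in centring. With quantile normalization, loess and spike-in centring, complex IV became 0.13, 0.15 and 0.021 and complex V 0.091, 0.098 and 0.0014, and with spike-in centring complex III became 0.021. The share of genes above 0 became 74.5% with quantile normalization, 82.7% with housekeeping centring, 73.5% with loess and 49.0% with spike-in centring, against 52.8%, 45.3%, 50.4% and 26.7% of all names. Genes 2-fold higher numbered 2 with no filter on dim probes, 0 with a stricter one, which drops Cox6a2, and 3 at 1.5-fold. All names 2-fold higher (741) and lower (720) became 478 and 457 with normexp, 449 and 1251 with spike-in centring, 1988 and 1834 with no filter, 267 and 283 with the stricter one, 288 and 283 under a 3-fold rule and 1965 and 1728 under a 1.5-fold one. The filters change which names are tested, 34960 with no filter and 11746 with the stricter one, against 23493. The counts of all names did not change in proportion to these numbers. A changed fold rule moves the counts by construction, and the cause of the other changes was not tested. The deposited log2 table, the array median and the mean over probes left the median of the genes between 0.25 and 0.27. The deposited table is close to the main scaling by construction.

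No paired analysis was possible because there is 1 array per genotype, and for the same reason no array could be left out and the slide could not be a block. Dim signals limit Cox6a2, Ndufa4l2 and Cox17, whose modelled errors were 0.34, 0.37 and 0.42, against a median of 0.20.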
